A study of Mus musculus with 2 samples.

Results

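Clustered sites of moderately lower H3K27ac in Dicer knockout cells are described here, in mouse mesenchymal stromal cells. The members were 540 of the 21418 events in the 6 deposited lists, and 540 of the 1708 H3K27ac events listed as higher in wild type outside chromosome X (31.6%, 95% interval 29.4 to 33.9). An event is a position to which peak-finding software assigned reads. Events higher in wild type at most 5 kb apart were joined into regions, regions of 2 or more events were kept, and those of their events whose wild-type reads were below 6 times the knockout value became members. The 540 members lay in 243 regions on 19 chromosomes.

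Dicer knockout (KO) and Dicer wild-type (WT) cells were monoclonal immortalized lines, called fibroblasts in the sample titles, grown in the same serum-containing medium. The labels give 1 H3K27ac chromatin immunoprecipitation (ChIP-seq) sample per genotype, made with the same antibody, and the H3K27ac lists hold pooled replicates, so each event has 1 value per genotype and no replicate error. Since each line is a single clone, genotype and clone cannot be told apart. KO and WT are also compared in lists for H3K4me3 and H3K36me3, marks for which the labels used here describe no sample, and total reads per library are unknown. Reads assigned to an event therefore set its precision. Intervals are exact, at 95%, and cover counting error only.

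Dicer is the ribonuclease that cuts microRNA precursors into mature microRNAs, which repress messenger RNAs. H3K27ac, acetylation of lysine 27 on histone H3 by the acetyltransferases p300 and CBP, marks active enhancers and promoters, and neighbouring acetylated sites often make up extended enhancer domains. H3K4me3, trimethylation of lysine 4, marks promoters, and H3K36me3, trimethylation of lysine 36, is laid down along transcribed gene bodies. Stromal cells are known to use large enhancer clusters at genes of the extracellular matrix and of the cytoskeleton. The deposited positions are in mouse build mm9 and carry no gene names, so regions are named by position.

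H3K27ac at the members was about 3.4 times lower in KO, with a wide spread among them. The median member had 109 scaled reads in KO (quartiles 79.3 and 142, range 31.1 to 456) and 337 reads in WT (266 and 441, range 155 to 1341). KO reads are given throughout as the authors scaled them to WT. The ratio of KO over WT had a median of 0.297 (quartiles 0.232 and 0.386) and ran from 0.167, the limit set by the rule, to 0.705. WT was at least 2 times KO at 500 of the 540 members (92.6%). The share was 95.5% of all 1765 events higher in WT, from which the members come, and 16.7% over both H3K27ac lists. The rule used these values, so the members' share is no result about them, and the ratios are descriptions. The whole interval of the ratio lay below 1 at all 540 members, which their listing as higher in WT largely fixed in advance. It lay below 0.5 at 428 of them (79.3%), a share not computed for the other events.

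**Figure D1:**
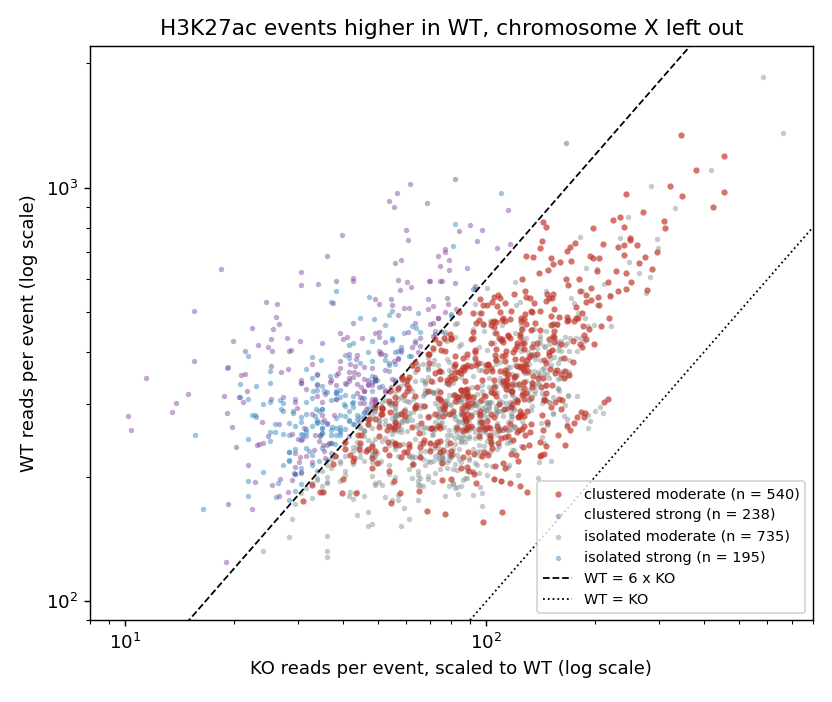
Reads per H3K27ac event in KO (x axis, scaled to WT, log scale) and in WT (y axis, log scale), 1 point per event listed as higher in WT, coloured by class. The 540 clustered moderate events fill the band between equal reads and the 6-fold line, and the strong events lie above that line.

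At the 6-fold limit the members met the strong events without a gap. Just inside, the member at 102912501 on chromosome 14 had 62.3 scaled reads in KO and 373.6 reads in WT, a ratio of 0.167 (0.124 to 0.221). The next members inside were at 71314910 on chromosome 15, with 49.2 and 295 reads in KO and WT, and at 136392277 on chromosome 4, with 40.5 and 242.6. Just outside, the clustered event at 98241763 on chromosome 6 had 74.8 scaled reads in KO and 450.1 reads in WT, giving 0.166 (0.126 to 0.214). Next outside were 35510946 on chromosome 7 and 130350244 on chromosome 4, each again at 0.166. Counting error at these events was far wider than the distance to the limit.

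The member with the largest deposited −log10 q, 135.51, was at 44642369 on chromosome 17, with 345.4 scaled reads in KO against 1341.3 reads in WT, a ratio of 0.258 (0.227 to 0.291). It also held the most WT reads of any member. After it came 96958706 on chromosome 8, with 143.9 scaled reads in KO and 825.7 reads in WT, and 38744707 on chromosome 6, with 146.5 and 801 reads in KO and WT. Their ratios, 0.174 (0.144 to 0.210) and 0.183 (0.151 to 0.220), were close to the 6-fold limit. Next were 66027347 on chromosome 3, with a ratio of 0.252 (0.216 to 0.291), and 102183518 on chromosome 14, with 0.192 (0.159 to 0.232). These leading members thus joined high WT reads with ratios in the lower part of the members' range.

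Most regions were pairs. Of the 243 regions, 158 held 2 members, 32 held 3, 14 held 4, and 3, 3 and 1 regions held 5, 6 and 7. The other 32 regions held 1 member beside strong events, in which WT exceeds KO at least 6-fold. Regions made of members alone numbered 193 and held 453 members, while 50 mixed regions held the remaining 87 members together with 66 strong events. From first to last event, the median region spanned 3217 bp (quartiles 1749 and 4600.5, range 578 to 19102). Members next to each other in a region lay 577 to 4981 bp apart, with a median of 2534 bp over 289 such pairs.

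Members beside strong events had lower ratios than members of purely moderate regions, with medians of 0.204 (quartiles 0.178 and 0.271) and 0.316 (0.255 and 0.398). The strong events in those mixed regions had a median ratio of 0.134. Both sets come from the list that chose the members, so this too is a description. The ratio changed little with the number of events in a region. Its median was 0.295 for members in regions of 2 events, 0.312 in regions of 3, and 0.291 in regions of 4 or more.

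The region with most members was on chromosome 2, from 54288329 to 54302753, where all 7 events were members. Their scaled KO reads, in order along the chromosome, were 79.4, 87.3, 140.6, 161.2, 106.9, 141.1 and 68.9, against WT reads of 443.9, 276.5, 224.6, 292.4, 517.7, 714 and 322. WT reads were lowest at 54292274 and highest at 54299694, and KO reads were highest at 54294365. The ratio was 0.626 (0.501 to 0.782) at the event at 54292274 and 0.179 (0.138 to 0.231) at the first. This 3.5-fold spread was the widest between members within any region of 2 or more members, with strong events left out. Over the whole region KO had 785 scaled reads and WT 2791 reads, a ratio of 0.281 (0.259 to 0.305).

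On chromosome 13, the 18341 bp from 49556864 to 49575204 held 6 members. Their scaled KO reads were 102, 97.6, 88.3, 99.3, 170 and 231, against 247.7, 467.8, 373.2, 260.5, 259.9 and 720 reads in WT. KO was thus nearly level over the first 4 events while WT varied, and the ratio ran from 0.209 (0.164 to 0.261) to 0.654 (0.531 to 0.798). The region as a whole had a ratio of 0.338 (0.311 to 0.368), and no listed H3K4me3 event higher in WT lay within 100 kb of it.

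The longest region was on chromosome 16, from 25220294 to 25239395, with 5 members and 1 strong event over 19102 bp. The members had 147.5, 130.4, 112.6, 128 and 150.3 scaled reads in KO against 553.4, 360.4, 527, 562 and 363.6 in WT, and together a ratio of 0.283 (0.258 to 0.309). With the strong event, which had 76.9 scaled reads in KO and 499.4 reads in WT, the ratio of the region was 0.260 (0.239 to 0.283). Another 6 members lay at 48740358 to 48754374 on chromosome 14. There KO had 140.9, 144.7, 145.9, 116.6, 63.7 and 108.6 scaled reads and WT 242.8, 383.5, 238, 193, 298.6 and 433.9 reads. Ratios at the last 2 of these, 0.213 (0.157 to 0.282) and 0.250 (0.198 to 0.311), were below those at the others, which lay between 0.377 and 0.613.

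Fewest reads among the regions with most members were found on chromosome 7, from 103291275 to 103306220. Its 6 members had 46.5, 64.9, 87.6, 57.8, 71.2 and 40.1 scaled reads in KO and 230.5, 184.9, 260.1, 182.9, 409.5 and 197.2 reads in WT. The summed ratio was 0.251 (0.223 to 0.283), the lowest of these 5 regions. By summed WT reads of its members, a compact region on chromosome 17 led, 44637359 to 44642369. It had 423.2, 456.3 and 345.4 scaled reads in KO against 895.2, 978.3 and 1341.3 in WT, and a ratio of 0.381 (0.356 to 0.408).

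**Figure D2:**
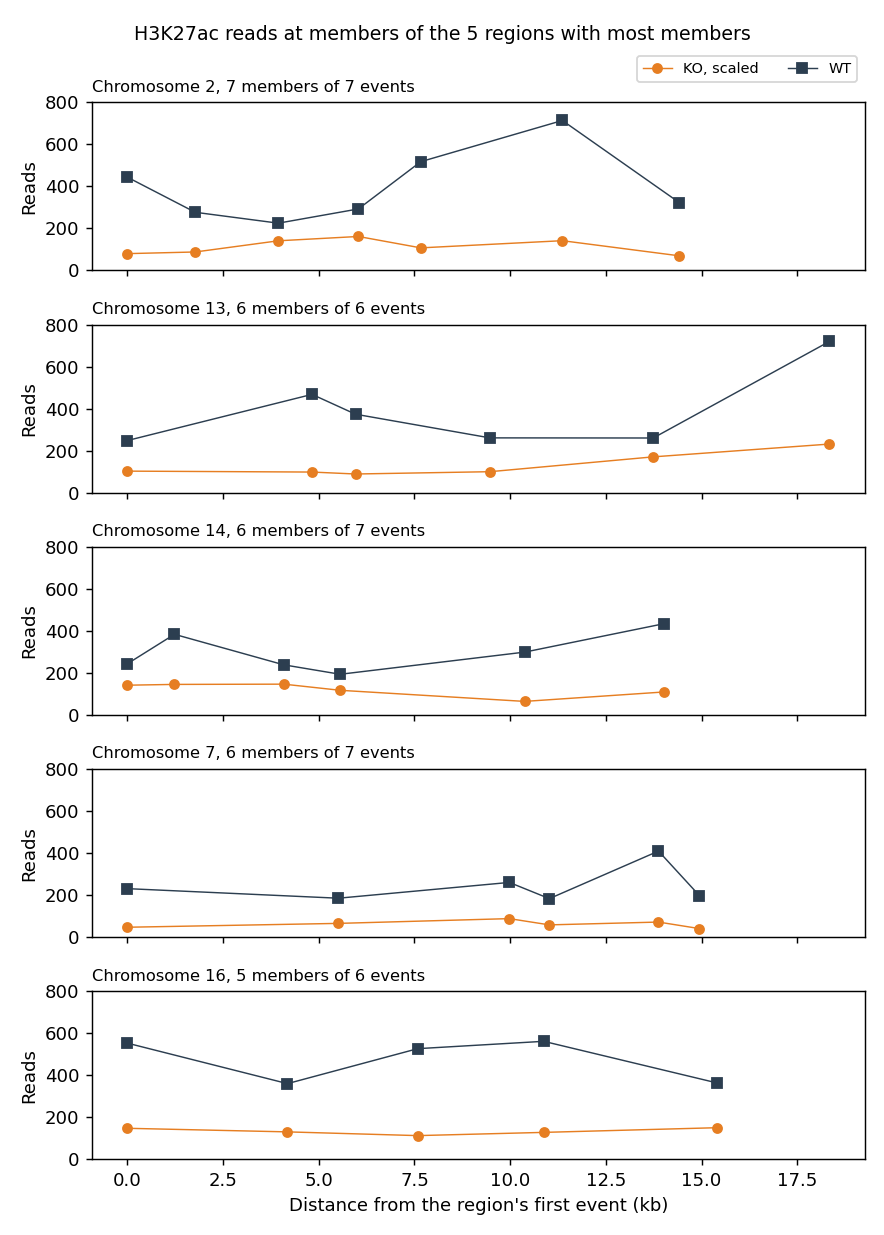
H3K27ac reads (y axis) in KO (circles, scaled to WT) and WT (squares) at the members of the 5 regions with most members, against distance from the region's first event (x axis, kb), with strong events left out. WT lies above KO at every member, and the gap between them varies along each region.

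The smallest differences were found in pairs. At 10127333 to 10132029 on chromosome 14, KO had 97.6 and 144 scaled reads and WT 155.4 and 226.6 reads, a ratio of 0.632 (0.534 to 0.749). The pairs starting at 53302221 on chromosome 6 and 109666674 on chromosome 11 had ratios of 0.616 (0.528 to 0.717) and 0.576 (0.501 to 0.662). Those starting at 56706830 on chromosome 9 and 84081280 on chromosome 6 had 0.529 (0.464 to 0.603) and 0.518 (0.441 to 0.608). At the other end, the 5 regions with the lowest ratios each held 1 member, with ratios of 0.167 to 0.171, and owe that place to the limit. They start at 136390641 on chromosome 4, 10730299 on 19, 9105834 on 8, 83433384 on 10 and 162104719 on 1.

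Ratios varied among members of a region, which is a description, since the rule used these ratios and left strong events out. In the 211 regions with 2 or more members, the highest member ratio was at the median 1.26 times the lowest (quartiles 1.11 and 1.48). The intervals of the highest and lowest member did not overlap in 45 regions (21.3%). On the log2 scale, ratios had an SD of 0.37 within regions over 508 members, and region means an SD of 0.40. Region means also carry part of the spread within regions, so these SDs are not like measures. The median counting error of a single log2 ratio was 0.17. Pairs of members next to each other differed by a median of 0.28 (log2) when at most 1500 bp apart, 0.33 between 1500 and 3000 bp, and 0.27 beyond 3000 bp. Within the 5 kb that joins a region, similarity thus did not follow distance. In the 30 regions made of exactly 3 members, WT reads were highest at the first event in 10, at the middle in 6 and at the last in 14.

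Apart from position, clustered moderate events differed from isolated moderate ones in the reads behind them. Median reads were 109 (KO, scaled) and 337 (WT) at members, and 86.4 and 284 at the 735 isolated moderate events, while the median ratios were near each other, 0.297 and 0.313. The deposited −log10 q had a median of 19.1 at members and 9.89 at isolated moderate events. WT reads were whole numbers, within 0.06, at 40.4% of members and 78.6% of isolated moderate events. The caller splits reads between close events, and the part of this sharing in the members' values was not tested.

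The H3K4me3 lists, which the rule did not use, were then set against the members. Of the 540 members, 84 (15.6%, 12.6 to 18.9) had an H3K4me3 event higher in WT within 1 kb, in 45 of 243 regions. For comparison, the shares were 10.1% (6.57 to 14.6) of 238 clustered strong events, 12.2% (9.96 to 14.8) of 735 isolated moderate events and 13.2% (11.7 to 14.9) of all 1765 events higher in WT. The intervals of these classes overlap within 1 kb. Within 5 kb the shares were 21.5% (18.1 to 25.2) for members and 13.3% (10.96 to 16.0) for isolated moderate events. Events of a region are not independent, so the members' interval is too narrow. Counted by region, 49 of 243 regions (20.2%, 15.3 to 25.8) had a member with such an event within 5 kb, and this interval overlaps that of the isolated events. The share for clustered strong events within 5 kb was 14.3% (10.1 to 19.4), which overlaps the members' interval. No H3K4me3 event higher in KO lay within 5 kb of any member, where a count of 0 of 540, taken as under 3 counts, allows a share of up to 0.556%. Over both H3K4me3 lists, 88.2% of events were listed as higher in WT, which is the background to that count. The count was also 0 over all 1765 WT-higher H3K27ac events, so it does not set the members apart.

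The H3K4me3 events beside members differed more between genotypes than the rest of their list. The 84 members were next to 80 distinct H3K4me3 events, whose KO over WT ratio had a median of 0.152 (quartiles 0.0747 and 0.291), against 0.340 (0.261 and 0.397) for the 5150 events with no WT-higher H3K27ac event within 1 kb. WT was at least 2 times KO at 75 of the 80 (93.8%), near the 93.5% of the list of H3K4me3 events higher in WT from which they come, so this count is no result about the members. Beside isolated moderate events the median was 0.163 (0.0798 and 0.219), close to that beside members. Beside clustered strong events it was 0.0374 (0.0186 and 0.0745). The lower H3K4me3 ratio was thus shared by the classes of H3K27ac event and was lower still beside strong ones. In units of each genotype's own background reads, 77 of the 80 still had a ratio below 1, with a median of 0.276 against 0.673 for the whole WT list.

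At the scale of the lists, the H3K4me3 ratio was below the H3K27ac ratio at 71 of the 84 members, whose H3K27ac ratios lie above 0.167 by the rule while H3K4me3 ratios have no such floor. In units of own background this count was 44 of 84, with medians of 0.276 for H3K4me3 and 0.290 for H3K27ac, so the order of the marks depended on the scale. Across these 84 members the log2 ratios of H3K27ac and H3K4me3 gave r = 0.477 (Pearson) and rho = 0.521 (Spearman), given as a description, since members share regions and neighbouring events. Members near H3K4me3 had a median H3K27ac ratio of 0.336 (quartiles 0.247 and 0.399), and the other 456 members 0.291 (0.231 and 0.380). Inside the 25 regions that held members of both kinds, the order was the other way in 18. There the members near H3K4me3 had the lower ratio, with medians of 0.277 and 0.351. The rule limited these H3K27ac ratios and left strong events out, so both comparisons are descriptions. Another 18 regions had an H3K4me3 event beside each of 2 or more members.

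Of the 5 regions with most members, those on chromosomes 2 and 14 had H3K4me3 neighbours. On chromosome 2 the event at 54290021, beside the second member, had 47 scaled H3K4me3 reads in KO and 1251.4 in WT, a ratio of 0.0376 (0.0304 to 0.0460), against 0.316 for H3K27ac at that member. On chromosome 14 an H3K4me3 event lay within 1 kb of 5 of the 6 members. Their ratios were 0.183 (0.158 to 0.212), 0.0527 (0.0435 to 0.0638), 0.0182 (0.00959 to 0.0301), 0.0374 (0.0143 to 0.0787) and 0.0385 (0.0226 to 0.0630). The lowest of these, 6.6 scaled reads in KO against 363.5 in WT, stood at a member whose H3K27ac ratio was 0.604. The other 3, on chromosomes 7, 13 and 16, had none.

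Among the H3K4me3 events of the WT list, the caller attached 1 of 3 short sequences to 353 of 5542 (6.37%). These 8-base words, shown because they are the sequences deposited for this list, are written in capitals throughout because the whole word was the match.
Word a: CGCCCGGT
Word b: CCCCCGGT
Word c: CGCCCTGT
Beside members, 2 of 80 H3K4me3 events carried a word (2.50%, 0.304 to 8.74), 1 of them word b and 1 word c, so at this number no difference from the list was detectable. The H3K27ac lists hold no such words.

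H3K36me3 events higher in WT stood within 1 kb of 24 members (4.44%, 2.87 to 6.54), in 19 regions. The share was 1.68% (0.460 to 4.25) of clustered strong events, 1.09% (0.471 to 2.13) of isolated moderate events and 2.15% (1.53 to 2.94) of all WT-higher events. Within 5 kb it came to 17.8% (14.6 to 21.3) of members, 11.8% (7.96 to 16.6) of clustered strong and 5.58% (4.03 to 7.49) of isolated moderate events. The intervals of members and isolated moderate events were apart at both distances, while those of members and clustered strong events overlapped at both. Counted per region, 17.7% (13.1 to 23.1) of the 243 regions had a member with such a neighbour within 5 kb. A region of several members covers a wider stretch than 1 isolated event, so these shares are not fully alike. No member had a KO-higher H3K36me3 event within 5 kb, while 66.2% of all listed H3K36me3 events were higher in WT. Nor had any of the 1765 WT-higher H3K27ac events, so this absence does not set the members apart. The share of members with the mark within 1 kb was 2.81% (1.29 to 5.27) in regions of 2 events and 4.50% (1.48 to 10.2) in regions of 3. It was 9.17% (4.49 to 16.2) in regions of 4 or more. These intervals overlap, and they are too narrow because members of a region are not independent. On chromosome 4, for example, 3 members of 1 region of 4 events had the mark.

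**Figure D3:**
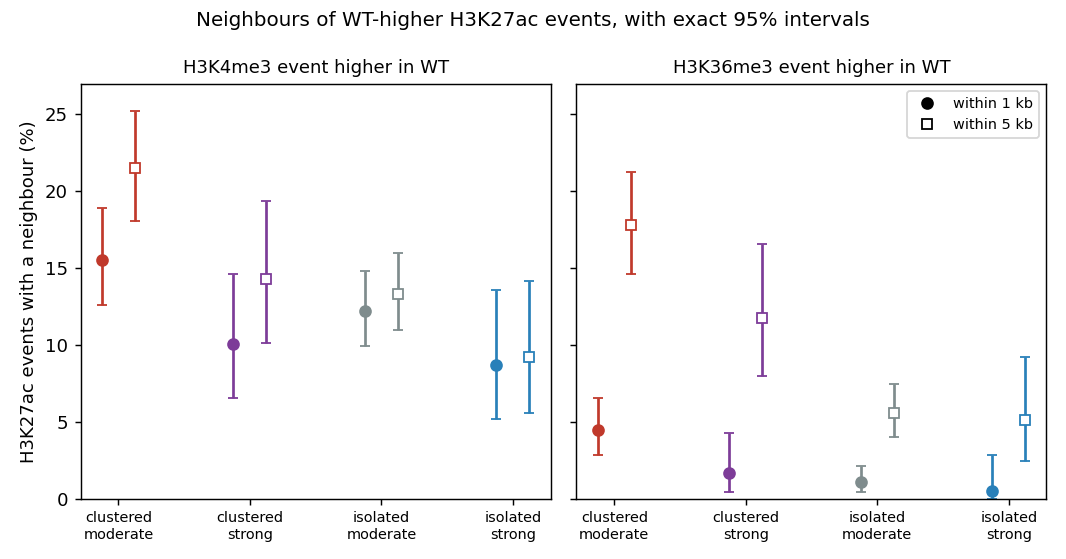
Share of WT-higher H3K27ac events (y axis, %) with a WT-higher H3K4me3 (left) or H3K36me3 (right) event within 1 kb (filled) or 5 kb (open), for 4 classes of event (x axis), with exact 95% intervals. Members, at the far left of each panel, have the highest share in each setting, with 21.5% for H3K4me3 and 17.8% for H3K36me3 within 5 kb.

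The 23 distinct H3K36me3 events beside members had a median KO over WT ratio of 0.137 (quartiles 0.0932 and 0.204), against 0.276 (0.174 and 0.363) for the 3301 events away from WT-higher H3K27ac. Beside isolated moderate events the median was 0.153, over 8 events, and beside clustered strong events 0.0548, over 3. The 1 event beside an isolated strong event had 0.124. The lower ratio was thus not particular to the members. WT was at least 2 times KO at 23 of 23, and at 99.4% of the list of H3K36me3 events higher in WT from which they come, so this count is no result about the members. The mark's reads were few, with medians of 8.5 scaled reads in KO and 62 in WT at these neighbours, and 1 of them had 0 reads in KO. Over 23 members with reads in each genotype, r with the H3K27ac ratio was 0.158 and rho 0.215.

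**Figure D4:**
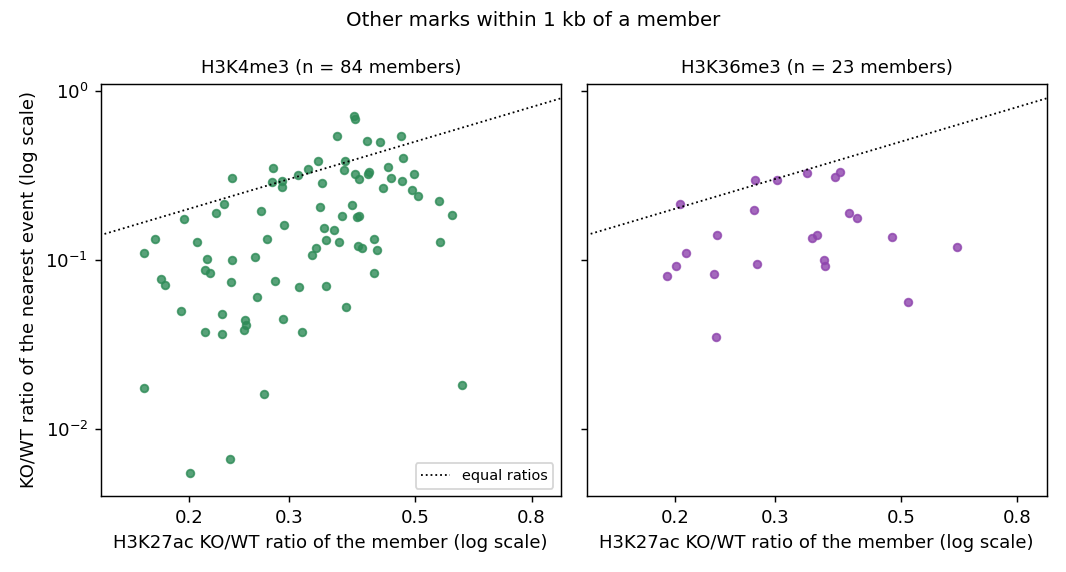
KO over WT ratio of the nearest WT-higher H3K4me3 (left) or H3K36me3 (right) event within 1 kb (y axis, log scale) against the H3K27ac ratio of the member (x axis, log scale), 1 point per member, with 1 H3K36me3 neighbour at 0 reads in KO left out. At the scale of the lists 71 of 84 points for H3K4me3 lie below the line of equal ratios, with x values kept above 0.167 by the rule, and 44 of 84 would in units of own background.

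Both other marks, higher in WT, lay within 1 kb of 6 members (1.11%) in 4 regions, and 6 regions had both beside their members as a set. This share was not computed for the other WT-higher H3K27ac events, so it is no result about the members. Among the regions with both marks beside their members, the one with most WT reads lay on chromosome 3, from 66023150 to 66027347. Its 4 members had 162.2, 260.8, 96.7 and 242.8 scaled reads in KO and 306.2, 724.8, 498.6 and 965 reads in WT. The member at 66025906 had the lowest H3K27ac ratio, 0.194 (0.152 to 0.242), and beside it the ratio was 0.0501 (0.0362 to 0.0676) for H3K4me3 and 0.0806 (0.0362 to 0.156) for H3K36me3.

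On chromosome 4, the 4 members at 63704238 to 63707705 had 121.2, 82, 108.9 and 217.2 scaled reads in KO against 256.2, 346.9, 542.1 and 590.8 in WT. H3K4me3 beside those at 63705784 and 63706829 was close to absent in KO, with 5.2 and 6.3 scaled reads against 779.6 and 1141.9 in WT. H3K27ac kept ratios of 0.236 (0.182 to 0.304) and 0.201 (0.161 to 0.250) at those members. H3K36me3 near 63706829 had 6.8 scaled reads in KO and 74 in WT. At 34328503 to 34330221 on chromosome 19, 3 members had 240.1, 219.7 and 157 scaled reads in KO and 688.8, 545.6 and 469.1 in WT. Their ratios, 0.349, 0.403 and 0.335, had overlapping intervals, and the H3K4me3 events there had ratios of 0.0701 (0.0584 to 0.0836) and 0.117 (0.103 to 0.133).

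On chromosome 15, 3 members lay at 102751849 to 102756693, with 85.1, 58.2 and 153.1 scaled reads in KO and 357.1, 348.5 and 652 in WT. H3K4me3 stood at the first and second, with ratios of 0.0991 (0.0879 to 0.111) and 0.0175 (0.0120 to 0.0254), and H3K36me3 at the last, with 0.0823 (0.0165 to 0.251). The same order, H3K4me3 first and H3K36me3 further on, was seen at 42397200 to 42402442 on chromosome 13. There KO had 86.4, 87.3 and 96.4 scaled reads and WT 387.6, 367.6 and 270.7. The H3K36me3 ratios beside the last 2 members were 0.140 (0.0704 to 0.251) and 0.140 (0.0656 to 0.267). H3K4me3 also came first in the chromosome 3 region. On chromosome 19, however, H3K36me3 at 34328225 came before H3K4me3 at 34328577 and 34329424. On chromosome 4, H3K36me3 at 63706450 and 63707037 lay among H3K4me3 events from 63705874 to 63707719. The named regions thus had no common order, and the direction of any gene there is unknown.

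Sites higher in KO were not found near the members. Although the KO list of H3K27ac held 8323 events and the WT list 1765, no KO-higher event lay within 20 kb of any of the 540 members, and the nearest was 24937 bp away. Within the same 20 kb, 221 members (40.9%, 36.7 to 45.2) had a WT-higher H3K27ac event of another region. The share was 42.6% over all 1765 WT-higher events, so it does not set the members apart. The rule merged this WT-higher list at 5 kb, so distances within it are descriptions. Within 100 kb the shares were 11.5% (8.92 to 14.5) for a KO-higher event and 69.1% (65.0 to 73.0) for a WT-higher event of another region. Isolated moderate events had shares of 7.48% (5.69 to 9.63) and 57.3% (53.6 to 60.9) within 100 kb, and clustered strong events 4.20% (2.03 to 7.59) and 88.2% (83.4 to 92.0). Among all WT-higher events the shares within 100 kb were 7.42% (6.24 to 8.75) and 67.2% (64.9 to 69.4). Over all 1765 WT-higher events, 3 (0.170%) had a KO-higher H3K27ac event within 20 kb, so its absence there does not set the members apart. Within 100 kb the members' interval lay above that of clustered strong events. Counted by region, these intervals overlapped, at 7.79 to 16.2% for regions of members and 1.34 to 9.31% for those of clustered strong events. No region of members had a KO-higher event of any mark within 5 kb. The same held for all 1765 WT-higher events, so this does not set the members apart. Within 20 kb, 1 region of members had a KO-higher H3K4me3 event and 1 a KO-higher H3K36me3 event, each with 2 members.

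**Figure D5:**
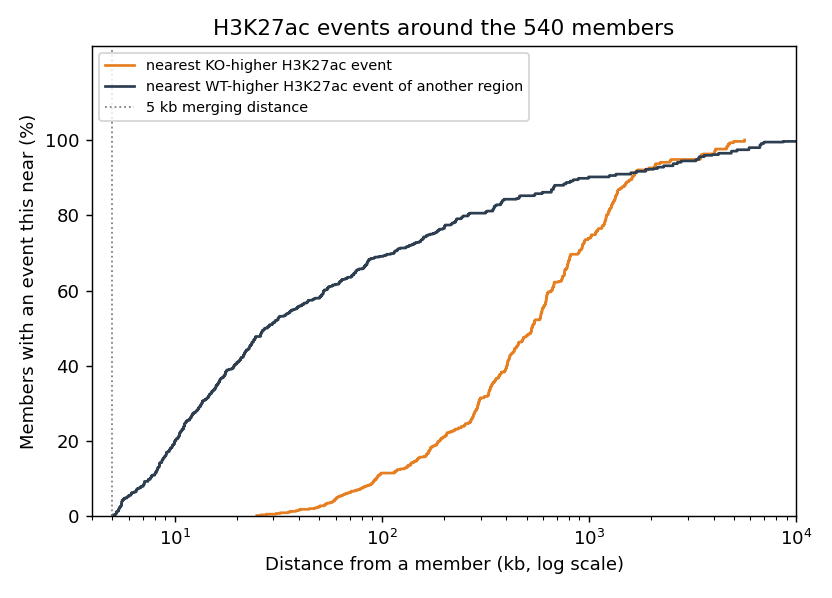
Cumulative share of the 540 members (y axis, %) with a KO-higher H3K27ac event, or a WT-higher one of another region, within a given distance (x axis, kb, log scale). The curve for WT-higher events starts at the 5 kb merging distance and reaches 69.1% at 100 kb, where the curve for KO-higher events stands at 11.5%. Over all 1765 WT-higher events, which are not drawn, these shares were 67.2% and 7.42%.

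The share of WT-higher events that were members, 31.6% outside chromosome X, varied between chromosomes. Given here are the highest and lowest shares of 19 chromosomes, as descriptions. Events of a region are not independent, so their intervals are too narrow. Members made up 61.1% (43.5 to 76.9) of the WT-higher events on chromosome 17, 22 of 36 in 9 regions, and 44.9% (32.9 to 57.4) on chromosome 16. On chromosome 12 they made up 12.9% (3.63 to 29.8), 4 of 31 events, all in 1 region. Chromosome 2 had most members, 57, followed by chromosomes 6 with 56 and 14 with 53. The median ratio per chromosome was lowest on chromosome 6, at 0.250 (quartiles 0.223 and 0.325), and highest on 12, at 0.414, and the quartile ranges of most chromosomes overlapped.

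Background reads of H3K27ac differed between chromosomes. On chromosome 9 the KO over WT ratio of background reads was 0.632 of that of the median chromosome, and on chromosome 12 it was 1.27 times that. In units of own background, the median ratio of the 38 members on chromosome 9 was 0.348, where the scaled reads of the list gave 0.273. For the 4 on chromosome 12 it was 0.263, where the list gave 0.414. Over all 540 members the median became 0.252 (quartiles 0.189 and 0.328), and 0 members had a ratio above 1. The same held for 0 of all 1765 WT-higher events, so this count does not set the members apart.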

How the data were processed

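Deposited lists of GPS events (both H3K27ac lists and the KO list of H3K36me3) and GEM events (the others) were read, per the file headers and names. Per the submitters' processing notes, the build is mm9, and the only tool they name is TopHat 1.4. Each deposited event has an estimated count for the higher genotype and a scaled signal for the other. The deposited fold, −log10 p and shape score values are the authors', and the smallest −log10 q in each list is 2. A deposited column of expected signal is called background reads here and is not defined in the sources used.

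The factor that scaled KO in the WT lists was recovered by searching for the step of which most KO values are whole multiples (tolerance 0.06): 1.09 for H3K27ac (93.4% whole), 1.70 for H3K36me3 (92.4%) and 0.461 for H3K4me3 (54.2%, so its intervals are the least certain). Ratios are KO scaled reads over WT reads, with exact conditional binomial (Clopper-Pearson) intervals of unscaled reads. No molecular identifiers were used, so reads need not be independent molecules. The neighbour of a member is the nearest event of the other list. Own-background ratios divide each genotype's unscaled reads by its background reads on that chromosome. With 1 value per genotype, no test was made. Named regions are the 5 with most members, most WT reads, greatest length, lowest ratio, highest ratio and both other marks. Named events are the 5 with the largest −log10 q and the 3 on each side of the 6-fold limit. Members and lists were chosen with earlier results of these data known. Scripts (matplotlib 3.10.9, SciPy 1.17.1, pandas 2.3.3, NumPy 2.4.6, Python 3.11.15) were tested on simulated data.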

Additional observations from a re-analysis of the deposited data

How the results depend on the processing

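Of 56 alternative values of the 6 main quantities, 48 stayed close to the main value. Close meant within 1.5 times for counts, and within the main value's 95% interval for shares and the median ratio. Of these 48, 9 were the share near a KO-higher H3K27ac event, which was 0 in the main setting too. Every setting drew on events listed as higher in WT, so a change of direction was hardly possible and its absence is no support. Merging at 3 kb left 344 members, 19.8% of them near H3K4me3. The median ratio was 0.348 with WT below 4 times KO, 0.272 with WT below 8 times, and 0.252 in units of own background, the first and second by construction. The H3K36me3 share was 2.04% within 0.5 kb and 17.8% within 5 kb, and the H3K4me3 share 21.5% within 5 kb. Members with the H3K4me3 ratio below the H3K27ac ratio numbered 71 at the scale of the lists and 44 in units of own background. This comparison, taking 1 member per region, and only H3K4me3 events higher in WT by own background, were chosen after seeing the data. No paired analysis was possible because each genotype has a single pooled value, and leaving out a replicate could not be done either. Library depth is unknown, and no gene annotation in mm9 was used. A site that is in no list is not shown to be unchanged.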
